A study of Mus musculus with 4 samples.

Results

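The interleukin 1 family genes examined here were 10 genes for ligands, receptors and inhibitors: Il1a, Il1b, Il18 and Il33 (ligands), Il1r1, Il1rap and Il1rl1 (receptor chains), and Il1rn, Il1r2 and Il18bp (inhibitors). They were taken by gene symbol, and all 10 were found among the 32285 genes counted in each library. Single-cell 3' RNA sequencing had been done on the lung and synovium of female C57BL/6 mice aged 4 months that carried a human TNF transgene (TNF-Tg, TNF+) or were wild-type littermates (TNF-). The line overexpresses the human gene and develops erosive arthritis and pulmonary vascular disease. Tissue was pooled by genotype from 3 to 5 mice (lung) or 5 to 10 mice (synovium), digested with enzymes and sorted for live cells, so each group was 1 library and no difference below has a replicate. The human transgene is not among the counted genes, so the genotype labels could not be checked with it.

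Interleukin 1 alpha and interleukin 1 beta signal through the receptor chain encoded by Il1r1 together with the shared accessory chain encoded by Il1rap. Interleukin 1 beta and interleukin 18 are made as inactive precursors that caspase-1 cleaves within inflammasomes, whereas interleukin 33 is a nuclear protein of barrier and stromal cells that is active once released. The system carries its own brakes: Il1rn encodes a receptor antagonist, Il1r2 a decoy receptor without a signalling domain, and Il18bp a soluble protein that binds interleukin 18. Il1rl1 encodes ST2, the receptor for interleukin 33, which group 2 innate lymphoid cells, mast cells and some regulatory T cells carry. Interleukin 1 is a known mediator of joint inflammation and acts there on fibroblasts and endothelium.

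On GRCm38, 3 of the receptor genes lie close together on the plus strand of chromosome 1: Il1r2 (chr1:40074079-40125231), Il1r1 (chr1:40225080-40317257) and Il1rl1 (chr1:40429570-40465415). Chromosome 2 holds Il1rn (chr2:24336853-24351494, plus strand) and, on the minus strand, Il1a (chr2:129299610-129309972) and Il1b (chr2:129364570-129371139). The others are Il1rap (chr16:26581704-26730117), Il18 (chr9:50554827-50581840) and Il33 (chr19:29925114-29960718) on the plus strand and Il18bp (chr7:102014885-102018690) on the minus strand. Counts cover whole genes, introns included.

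Filters on gene number and mitochondrial share kept 6998 (TNF-) and 9174 (TNF+) lung cells from 8555 and 11243 barcodes, and 6200 (TNF-) and 3152 (TNF+) synovial cells from 6899 and 4246, with medians of 7137 to 12492 UMIs (counted molecules) per cell. The mitochondrial limit removed 17.6% of barcodes in the TNF+ synovium, against 1.41% to 3.78% elsewhere. Pairs of libraries shared 3 to 16 barcodes. Clusters were assigned to lineages by marker genes, and each name stands for cells like that type. The makeup of the tissues differed between the genotypes. In the synovium, macrophages or monocytes were 3.56% of TNF- and 32.5% of TNF+ cells, and fibroblasts 55.3% and 14.9%. In the lung, macrophages or monocytes were 9.05% of TNF- and 48.1% of TNF+ cells, and endothelium 32.7% and 4.35%. As a measure of free RNA, lymphoid cells held 0.0338 C1q UMIs each in the TNF- lung and 1.20 in the TNF+ lung, and 0.343 and 0.0714 in the TNF- and TNF+ synovium. Its part in the results was not tested beyond subtracting an estimate of it. In 34 of the 106 pairs of a member and a lineage that estimate left 1 library at or under a floor of 3 UMIs, so that the ratio is a bound, and in 4 pairs it left both there and no ratio is given.

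The start regions of 4 members are shown because Il1a, Il1b and Il1rn were all higher in the TNF+ synovium, and because Il1rl1 was read in different lineages of that tissue. Each window runs from 250 bases before to 50 bases after a RefSeq start site (GRCm38.p6), written 5' to 3' on the strand of the gene, and capitals mark motif matches. The Il1a window is chr2:129309923-129310222 (minus strand), that of Il1b chr2:129371090-129371389 (minus strand) and that of Il1rn chr2:24336610-24336909 (plus strand). Il1rl1 has a window at its upstream start, chr1:40429320-40429619, and another at a downstream start, chr1:40439379-40439678, both on the plus strand. Motifs were searched on both strands. That of the NF-kB type was GGGA, then any 4 bases, then CC. That of the AP-1 family was TGANTCA, that of the GATA factors was GATAAG, and that of the core promoter was TATAAA.
Il1a: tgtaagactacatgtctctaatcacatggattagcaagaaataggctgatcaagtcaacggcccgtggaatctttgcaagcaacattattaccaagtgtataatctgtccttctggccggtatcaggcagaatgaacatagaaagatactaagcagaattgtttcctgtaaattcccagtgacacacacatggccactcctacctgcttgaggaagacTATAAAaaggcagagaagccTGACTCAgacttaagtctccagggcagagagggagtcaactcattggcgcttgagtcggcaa
Il1b: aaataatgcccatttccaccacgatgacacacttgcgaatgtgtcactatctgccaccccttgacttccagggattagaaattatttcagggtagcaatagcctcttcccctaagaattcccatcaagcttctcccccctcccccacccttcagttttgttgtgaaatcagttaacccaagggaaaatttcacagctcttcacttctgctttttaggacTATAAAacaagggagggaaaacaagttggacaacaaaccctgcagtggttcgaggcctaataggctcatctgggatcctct
Il1rn: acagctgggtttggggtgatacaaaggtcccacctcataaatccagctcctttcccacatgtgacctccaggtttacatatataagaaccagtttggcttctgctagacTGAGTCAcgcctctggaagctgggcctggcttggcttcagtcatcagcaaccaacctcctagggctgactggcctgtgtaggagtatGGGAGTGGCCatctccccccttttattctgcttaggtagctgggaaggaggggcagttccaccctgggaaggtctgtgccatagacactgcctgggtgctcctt
Il1rl1 upstream: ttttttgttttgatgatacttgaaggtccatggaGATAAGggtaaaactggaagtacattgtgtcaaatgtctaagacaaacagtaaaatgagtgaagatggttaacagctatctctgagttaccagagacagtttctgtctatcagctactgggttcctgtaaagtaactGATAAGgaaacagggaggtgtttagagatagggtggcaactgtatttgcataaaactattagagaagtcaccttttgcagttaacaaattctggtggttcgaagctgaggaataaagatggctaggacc
Il1rl1 downstream: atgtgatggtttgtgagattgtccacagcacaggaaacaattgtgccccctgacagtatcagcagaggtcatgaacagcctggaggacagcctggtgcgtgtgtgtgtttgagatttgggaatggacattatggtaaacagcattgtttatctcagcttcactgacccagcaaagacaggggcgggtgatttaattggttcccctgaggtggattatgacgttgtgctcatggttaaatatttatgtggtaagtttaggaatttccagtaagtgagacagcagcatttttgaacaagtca
The Il1a and Il1b windows both held TATAAA, with its first base at -32 and -31 from the start, a motif present in 13.6% of 32851 promoters of the same length. TGANTCA, in 7.81% of promoters, was matched at -12 in Il1a and at -141 in Il1rn. The NF-kB type motif, in 20.7% of promoters, was matched at -54 in Il1rn. Il1rn has 2 more RefSeq start windows farther downstream, not shown, which held no match to the NF-kB type motif or the AP-1 motif. GATAAG, in 7.44% of promoters, was matched at -216 and -79 in the upstream Il1rl1 window and not in the downstream window. As background, the upstream start of Il1rl1 is known from hematopoietic cells and the downstream one from fibroblasts. A count from the 3' end does not show which start was used, and a match of letters is not a binding site.

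In the whole synovium, the 2 interleukin 1 ligands and the antagonist were higher in TNF+ than in TNF-. Levels are given as UMIs per 1000000 UMIs of the same cells (CPM) and differences as the log2 ratio of CPM, TNF+ over TNF-, with 95% intervals that cover counting error only. Il1a was 1.61 CPM in TNF- and 18.2 in TNF+ (log2 ratio 3.50, 3.21 to 3.79). Il1b was 206 and 804 CPM (1.96, 1.93 to 1.99), and Il1rn 8.54 and 155 CPM (4.18, 4.06 to 4.30). Il1r1 was lower, at 167 and 78.6 CPM (-1.08, -1.15 to -1.02). A gene was called where the libraries differed at least 2-fold with at least 20 UMIs in all. By that rule 3 members were higher and 1 lower, where 11.8% of all 19255 genes with enough UMIs were higher and 21.9% lower. The other members lay between Il1rap (-0.64) and Il18bp (0.89). With median-of-ratios or TMM scaling the split became 4 higher and 0 lower. The median log2 ratio over all genes was -0.17.

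**Figure D1:**
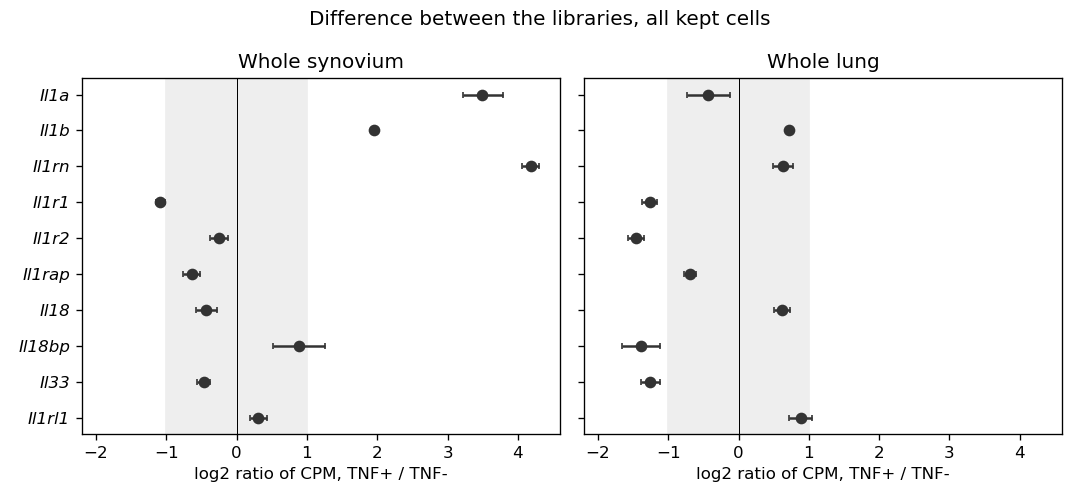
Log2 ratio of CPM, TNF+ over TNF-, for each gene in all kept cells of the synovium (left) and lung (right). Points are the ratio of 1 library to another, bars are 95% intervals for counting error, and the grey band marks less than 2-fold. Il1rn lies at 4.18 in the synovium and 0.63 in the lung.

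In the whole lung, no member was called higher and 4 were called lower, where 5.79% of all genes were higher and 25.5% lower. Il1r1 was 34.3 CPM in TNF- and 14.3 in TNF+ (-1.27, -1.37 to -1.16), Il1r2 31.8 and 11.6 (-1.46, -1.58 to -1.35), Il18bp 5.78 and 2.22 (-1.38, -1.65 to -1.12) and Il33 21.9 and 9.16 (-1.25, -1.39 to -1.12). The ratio of Il33 turned to 0.33 when each cell was weighted equally. Il1b was 225 and 370 CPM (0.71, 0.68 to 0.74) and Il1rl1 7.62 and 14.1 CPM (0.89, 0.72 to 1.05), both short of 2-fold. With either other scaling the split was 2 higher and 2 lower. The median log2 ratio over all genes was -0.32. In such sums over a tissue, fewer cells of a type and less RNA per cell cannot be told apart, so levels within lineages follow.

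**Figure D2:**
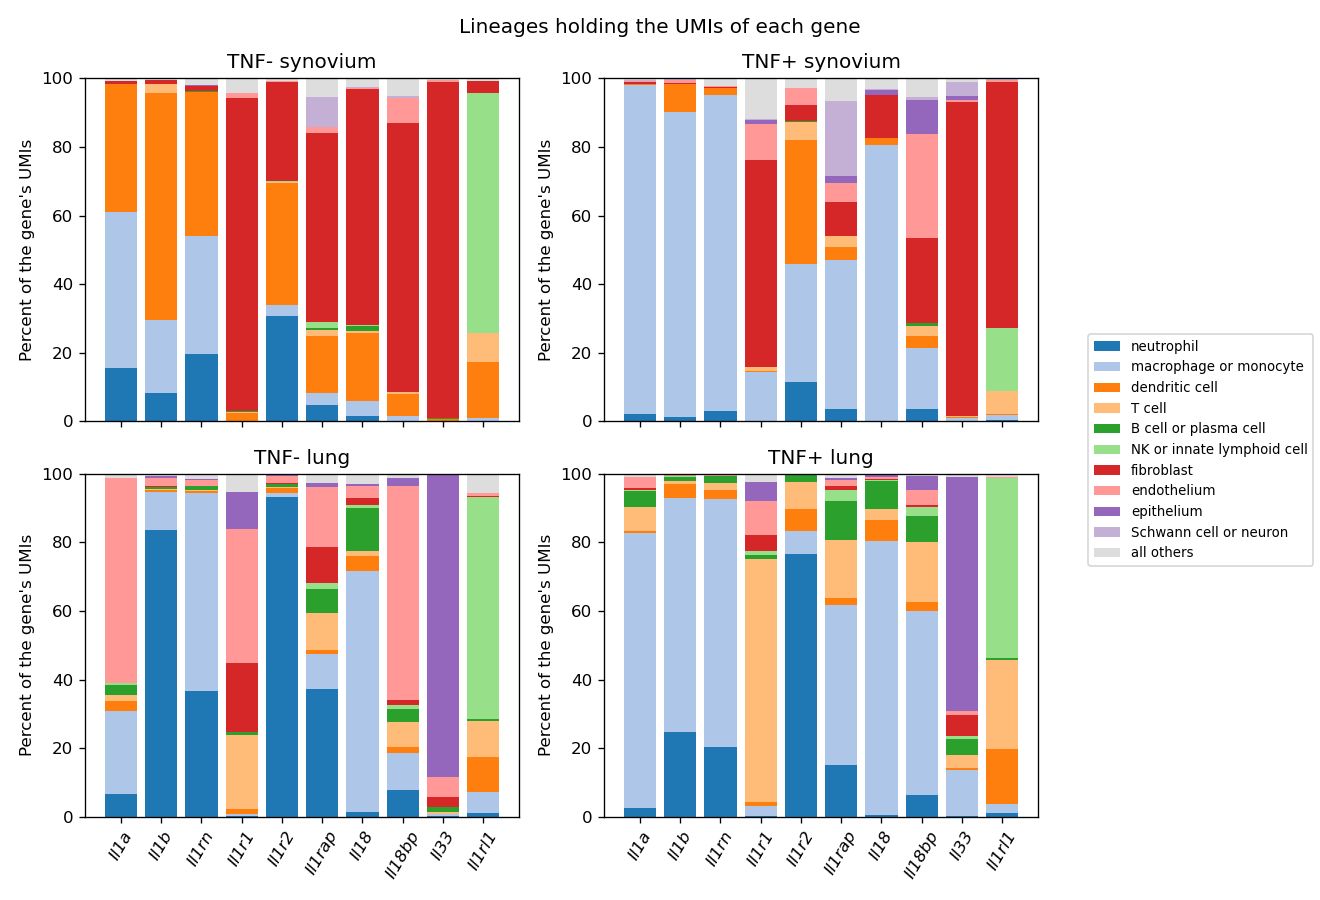
Percent of each gene's UMIs held by each lineage in the 4 libraries, with small lineages pooled in grey. Neutrophils held 83.5% of Il1b UMIs in the TNF- lung and 24.8% in the TNF+ lung, where macrophages or monocytes held 68.2%.

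Across lineages, 43 pairs of a member and a synovial lineage had enough UMIs and at least 50 cells in each library. Of these, 14 were higher and 13 lower in TNF+, where 7.96% of all gene and lineage pairs were higher and 16.3% lower. In the lung, 18 of 63 pairs were higher and 9 lower, where 7.58% of all pairs were higher and 9.59% lower. The call uses the fold alone, and for Il1a in synovial dendritic cells and for Il18 in fibroblasts, Il1rap in mural cells and Il1rn in B or plasma cells of the lung the interval included 0. The lineages of a library share its preparation and its free RNA and are not independent of each other.

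**Figure D3:**
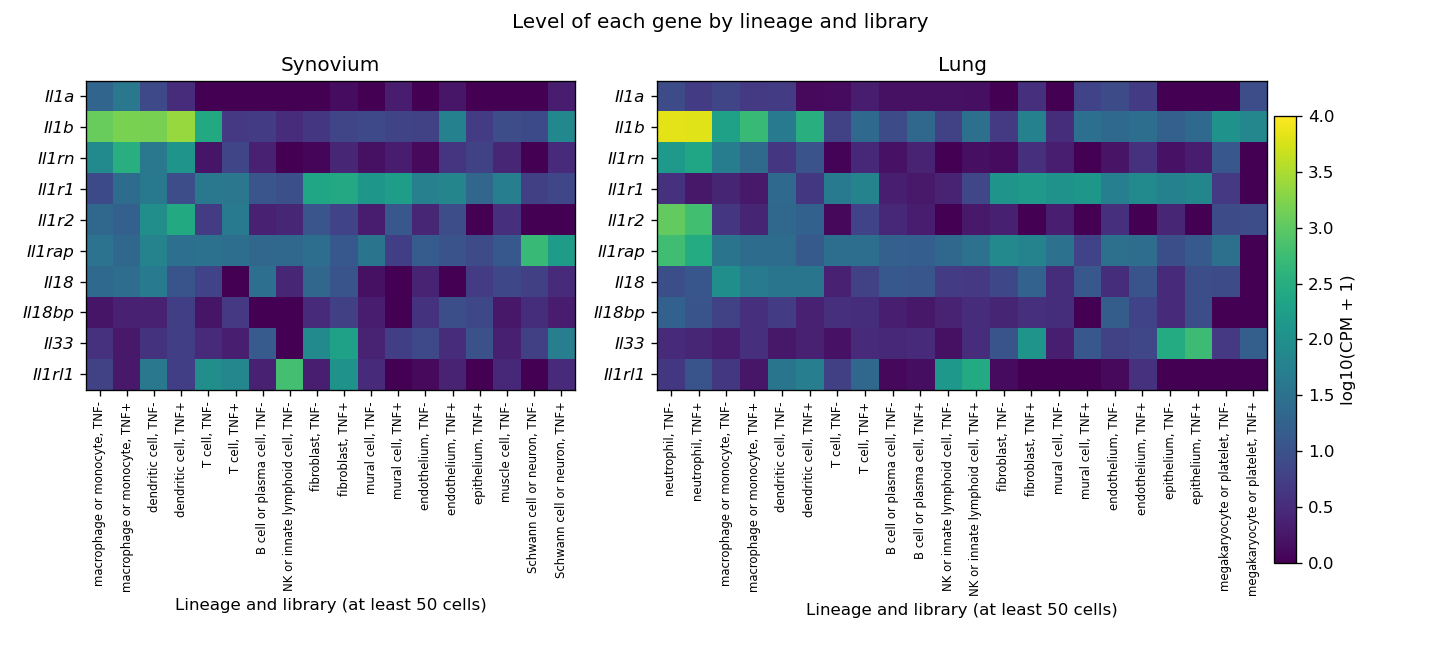
Level of each gene by lineage and library, as log10(CPM + 1), for lineages with at least 50 cells. Il1b is highest in lung neutrophils (6870 and 6472 CPM), Il1rl1 in innate lymphoid cells and TNF+ synovial fibroblasts, and Il33 in fibroblasts and lung epithelium.

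Of the ligands, Il1b in the synovium was read mostly in myeloid cells of both genotypes, and its level in macrophages or monocytes and in dendritic cells differed less than its level in the tissue. In macrophages or monocytes it was 1157 CPM in TNF- and 1592 in TNF+ (0.46, 0.41 to 0.51). In dendritic cells it was 1502 and 2418 CPM (0.69, 0.62 to 0.75). Both differences were under 2-fold, against almost 4-fold for the whole tissue (1.96). Dendritic cells held 66.3% of the tissue's Il1b UMIs in TNF-, and macrophages or monocytes held 88.9% in TNF+. Most of the latter lay in 1 cluster led by Cxcl2, Spp1 and Lyz2, with 11 TNF- and 779 TNF+ cells, which held 77.3% of Il1b, 88.8% of Il1rn and 95.02% of Il1a UMIs of the TNF+ synovium. In the nonclassical monocyte cluster, Il1b was 1429 and 1710 CPM (0.26). In the C1q-rich macrophage cluster, with 72 and 29 cells, it was lower at 818 and 435 CPM (-0.91, -1.18 to -0.65). The small set of synovial neutrophils, 27 and 24 cells, had 5910 and 2564 CPM of Il1b.

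Some large ratios of Il1b rested on very few cells. In synovial T cells Il1b was 268 and 3.53 CPM (-6.24), but 321 of the 397 TNF- UMIs were in 1 cell and 6 cells held them all. In the Aqp1-led endothelial cluster of the synovium it was 4.12 and 86.2 CPM (4.39), and 218 of the 225 TNF+ UMIs were in 5 cells. Doublets were not removed from these values. In Schwann cells or neurons of the synovium, Il1b was 7.001 and 71.5 CPM and Il33 4.67 and 50.7 CPM, on 3 and 2 TNF- UMIs.

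In the lung, neutrophils had the highest Il1b level, with little difference between genotypes. It was 6870 CPM in TNF- and 6472 in TNF+ (-0.09, -0.13 to -0.04), and 97.7% and 99.4% of neutrophils had a UMI (95.6% and 97.0% after thinning each cell to 1000 UMIs). Thinned T cells, which should lack the gene, had a UMI in 0.722% and 1.62% of cells, at medians of 9268 and 9241 UMIs against 4445 and 6215 in neutrophils. In macrophages or monocytes Il1b was 197 and 511 CPM (1.38, 1.30 to 1.46), and in dendritic cells 45.7 and 324.5 CPM (2.83, 2.44 to 3.24). The nonclassical monocyte cluster, with 307 TNF- and 2741 TNF+ cells, had 287 and 643 CPM (1.16, 1.06 to 1.27). Without it the macrophages or monocytes differed by 0.68. Classical monocytes had 168 and 334 CPM (0.99) and alveolar macrophages 49.5 and 118 CPM (1.25). The C1q-rich macrophage cluster went the other way, 268 and 30.2 CPM (-3.15), where 166 of the 207 TNF- UMIs were in 5 of its 62 cells. Il1b was also called higher in TNF+ T cells (2.13), B or plasma cells (1.51) and NK or innate lymphoid cells (2.53) of the lung. In these 3 lineages of the TNF+ lung the UMIs counted (317, 359 and 65) were fewer than the free RNA estimate (720, 772 and 111), so the estimate was too high for these cells and no ratio was measured after subtracting it. Lung fibroblasts had 3.76 and 56.6 CPM (3.91), on 12 and 23 UMIs.

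Il1a was sparse. Synovial macrophages or monocytes had 19.4 CPM in TNF- and 39.0 in TNF+ (1.01, 0.61 to 1.43). Lung macrophages or monocytes had 5.95 and 3.80 CPM (-0.65, -1.15 to -0.11), while the alveolar macrophage cluster, with 104 and 69 cells, had 20.5 and 64.2 CPM (1.65, 1.002 to 2.33). The lineage and that cluster thus differed in opposite directions. In the TNF- lung 59.8% of Il1a UMIs were in endothelium, and the aerocyte cluster of capillary cells had 39.4 CPM in TNF- and 7.37 in TNF+, where only 24 cells were kept.

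Il18, whose product acts on T and NK cells, was called lower in TNF+ in 3 lineages and higher in 3, the latter all in the lung. In lung macrophages or monocytes it was 96.0 and 43.6 CPM (-1.14, -1.27 to -1.01). Within that lineage, alveolar macrophages differed little (335 and 311 CPM, -0.10), nonclassical monocytes were higher in TNF+ (10.1 and 26.8 CPM, 1.40, 0.84 to 2.03) and so were classical monocytes (35.6 and 50.6 CPM, 0.51). The cluster led by Spp1 and Marco, 24 and 891 cells of low depth, was lower (489 and 190 CPM, -1.36, -1.98 to -0.68), and C1q-rich macrophages had 45.4 and 36.1 CPM (-0.33, -0.89 to 0.26). The alveolar macrophage cluster was 104 of 633 cells of the lineage in TNF- and 69 of 4412 in TNF+. The Spp1 and Marco cluster got no subtype name. However, Marco, Chil3, Atp6v0d2 and Krt79, among its top genes, are also alveolar macrophage markers. The 104 and 69 cells may thus leave out cells of that type. Without the filter on cells the lineage's ratio turned to 0.81. It was higher in lung T cells (1.30 and 5.07 CPM, 1.96, 1.07 to 2.98), on 12 and 72 UMIs, with a ratio of 0.51 after free RNA was subtracted. Il18 was also higher in lung endothelium (2.29 and 9.96 CPM, 2.12), on 15 TNF+ UMIs, and fibroblasts (6.26 and 17.2 CPM, 1.46), on 7 TNF+ UMIs. Free RNA was estimated at 14.1 of the former and 4.17 of the latter. Subtracting it left both TNF+ counts under the floor, with bounds of 0.18 and 0.35. In the synovium Il18 was lower in dendritic cells (42.6 and 9.97 CPM, -2.10) and fibroblasts (19.96 and 9.86 CPM, -1.02). The fibroblast ratio was -0.70 after free RNA was subtracted, and -2.14 without the cluster led by Saa3, Ibsp and Mmp13. The Grm8-led and Gdf10-led fibroblast clusters differed little (0.08 and -0.24), on 2 and 3 TNF+ UMIs. Other clusters were nearly absent from TNF+, such as the Pi16-led one with 623 and 14 cells. The part of this makeup in the ratio was not tested.

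**Figure D4:**
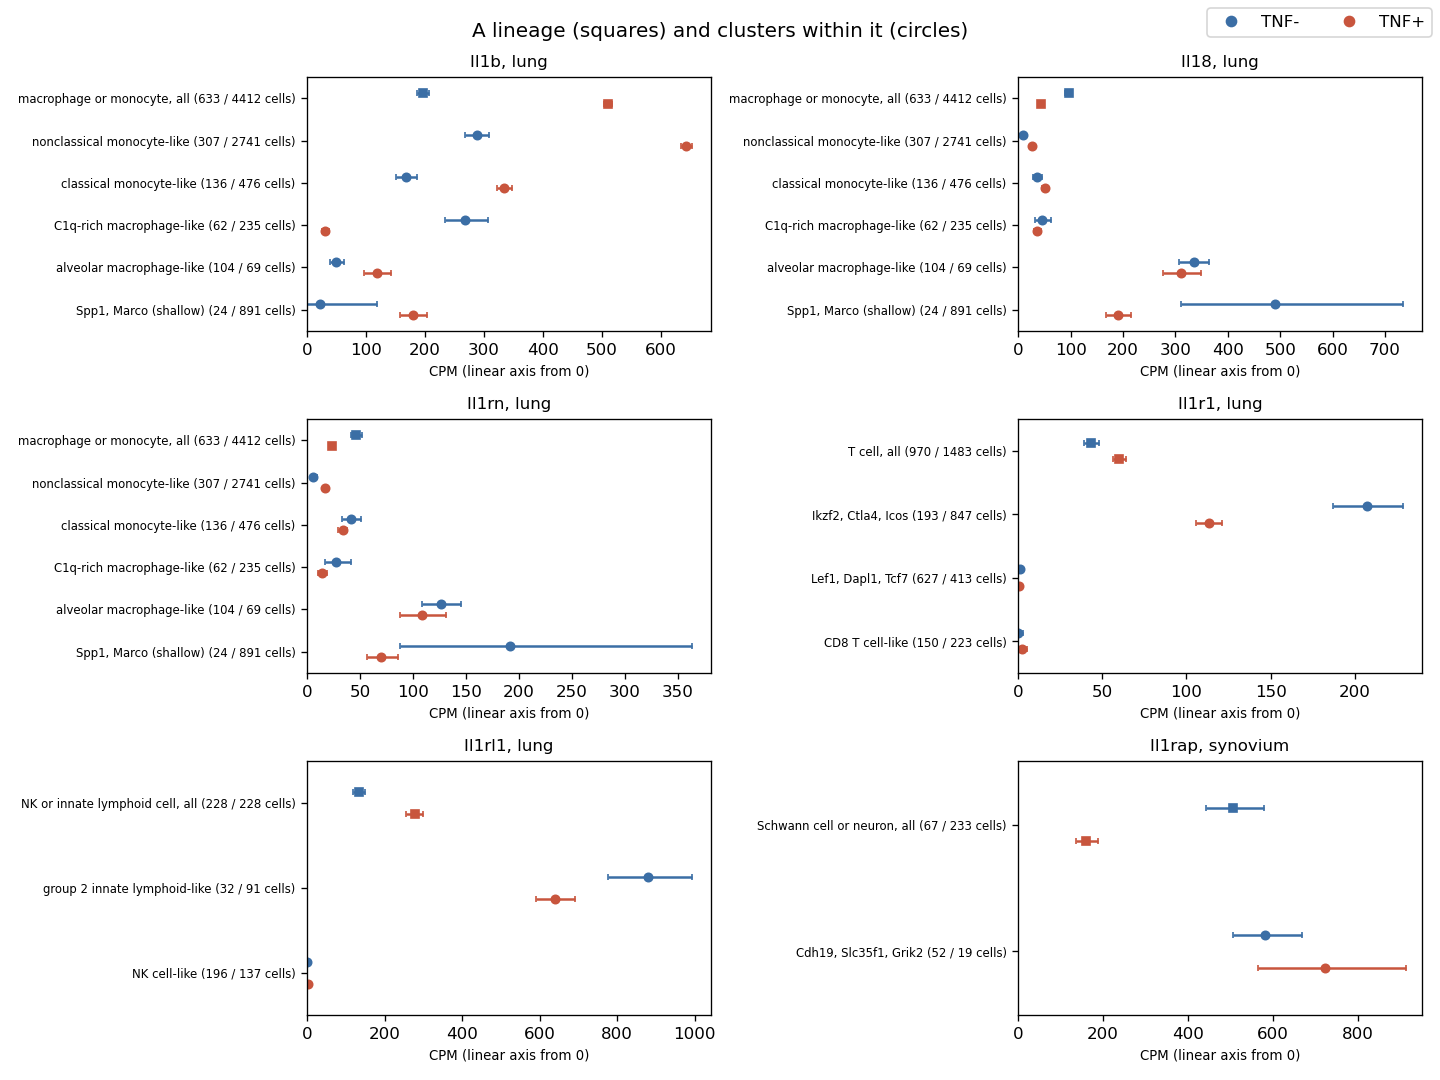
CPM of 6 gene and lineage pairs for the lineage (squares) and for clusters within it (circles), with 95% intervals and numbers of TNF- and TNF+ cells. For Il18 in the lung the lineage is lower in TNF+ (96.0 and 43.6 CPM) while nonclassical monocytes are higher (10.1 and 26.8 CPM).

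Il33 was a gene of fibroblasts in the synovium and of epithelium in the lung. Synovial fibroblasts had 77.2 CPM in TNF- and 193 in TNF+ (1.32, 1.23 to 1.42). A cluster led by Saa3, Ibsp and Mmp13, with 2 TNF- and 223 TNF+ cells, held 70.6% of the Il33 UMIs of the TNF+ synovium, in 86 of its cells. Without that cluster the ratio was 0.63 (0.45 to 0.81), still higher in TNF+. Of the clusters present in both libraries, that led by Grm8, Cxcl14 and Smoc2 had 64.2 and 138 CPM (1.10) and that led by Gdf10, Mgp and C4b 37.2 and 121 CPM (1.70). In lung epithelium Il33 was 293 and 546 CPM (0.90, 0.74 to 1.05), and in its alveolar type 2 cluster 374 and 638 CPM (0.77). Lung fibroblasts had 10.0 and 118 CPM (3.56, 2.88 to 4.25), from 464 and 118 cells with median depths of 5431.5 and 986.5 UMIs. Their alveolar fibroblast cluster had 13 and 96.4 CPM (2.89, 1.99 to 3.79), with 22 TNF+ cells. The whole lung had less Il33 in TNF+ while both of these lineages had a higher CPM, and epithelium was 5.09% of TNF- and 1.67% of TNF+ cells.

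Of the receptors, Il1r1 was highest in stromal cells, and its level there differed little. Synovial fibroblasts had 228 CPM in TNF- and 263 in TNF+ (0.20, 0.13 to 0.28), although the whole synovium was lower in TNF+ by over 2-fold. They held 91.1% of its UMIs in TNF- and 60.4% in TNF+. The Grm8-led fibroblast cluster had 208 and 418 CPM (1.01) and the Fmod-led cluster 52.6 and 25.5 CPM (-1.04). Synovial macrophages or monocytes had 6.93 and 25.1 CPM (1.86, 1.21 to 2.58), a ratio of -0.43 without the filter on cells. Their 20 TNF- UMIs were fewer than the free RNA estimate (118), so after subtraction the ratio was only a bound, of 4.56. The large-vessel endothelial cluster of the synovium had 10.4 and 63.8 CPM (2.62, 1.33 to 4.28), with a UMI in 4 of 80 and 44 of 140 cells. Synovial dendritic cells were lower, at 40.3 and 7.75 CPM (-2.38), and so were lung dendritic cells, at 22.0 and 3.38 CPM (-2.71). In the synovial ones the free RNA estimate covered most of the TNF- UMIs. After it was subtracted their ratio was -0.72, under 2-fold, and that of lung dendritic cells was -3.42.

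T cells held 21.6% of Il1r1 UMIs in the TNF- lung and 71.0% in the TNF+ lung, at 43.3 and 60.1 CPM (0.47, 0.30 to 0.65). Nearly all were in a cluster led by Ikzf2, Ctla4 and Icos, with 193 and 847 cells, where the level was lower in TNF+ (207 and 113 CPM, -0.87, -1.05 to -0.69). This cluster held cells with Il23r, the interleukin 23 receptor of type 17 T cells, and others with Foxp3, the regulator of regulatory T cells. Il1r1 was read in 82.0% of the 61 TNF- and 81.4% of the 199 TNF+ cells with Il23r and no Foxp3. In cells with Foxp3 and no Il23r it was read in 7.14% of 42 and 2.84% of 176. After thinning, the shares were 34.4% and 31.7% against 0% and 1.14%. Il1rl1 lay the other way: 26.2% and 33.5% of Foxp3 cells had a UMI (7.14% and 10.2% thinned), against 0 of 61 and 1.51% of Il23r cells. In both libraries the 2 receptors were thus read mostly in different cells of the same cluster. Median depths were 7782 to 10567 UMIs in the 4 sets.

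Il1rl1 was read in different lineages of the synovium in the 2 genotypes. Group 2 innate lymphoid cells held 70.0% of its UMIs in TNF- and 18.3% in TNF+, where only 18 such cells were kept against 142, at 644 and 1442 CPM. Fibroblasts held 3.51% and 71.8%, at 1.14 and 107 CPM (6.55, 6.16 to 6.96). The Saa3, Ibsp and Mmp13 cluster accounted for most of this, with 616 UMIs in 74 of 223 cells. Without it the fibroblasts had 9.95 CPM in TNF+ (3.12, 2.34 to 3.85). Both fibroblast ratios rested on 58 TNF- UMIs, fewer than the free RNA estimate for the lineage (238). After it was subtracted the lineage's ratio was only a bound, of 10.8. Synovial dendritic cells were lower, with a UMI in 127 of 372 TNF- and 3 of 58 TNF+ cells (38.9 and 4.43 CPM, -3.13, -5.02 to -1.76), and after thinning in 2.16% and 0%. In the lung, NK or innate lymphoid cells had 133 and 277 CPM (1.06, 0.85 to 1.27). Their group 2 cluster was lower in TNF+ (880 and 639 CPM, -0.46, -0.67 to -0.25) and made up 32 of 228 and 91 of 228 cells. Macrophages or monocytes were under 5 CPM in both tissues and called lower in TNF+ (-2.47 in the synovium, -2.18 in the lung). Their 14 TNF- UMIs in the synovium and 32 TNF+ UMIs in the lung were fewer than the free RNA estimates (15.3 and 81.6). No ratio was therefore measured after subtracting it. Lung T cells had 4.77 and 21.6 CPM (2.18), a ratio of -0.43 when each library was clustered by itself.

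**Figure D5:**
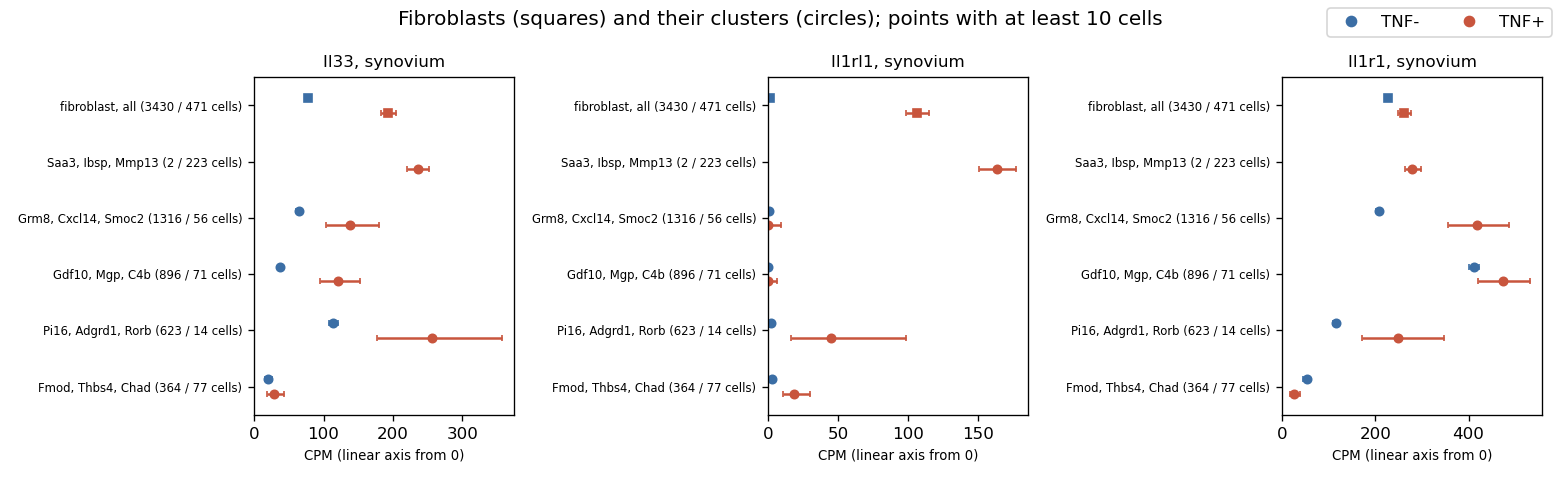
CPM of Il33, Il1rl1 and Il1r1 in all synovial fibroblasts (squares) and in 5 of their clusters (circles), with 95% intervals, for clusters with at least 10 cells in the library. Il1rl1 is 163 CPM in the Saa3, Ibsp and Mmp13 cluster, which has 2 TNF- cells and no TNF- point.

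Il1rap, the chain shared by both receptors, was called lower in TNF+ in 4 synovial and 3 lung lineages and higher in none. Lung neutrophils had 583 and 285 CPM (-1.03, -1.22 to -0.85), synovial fibroblasts 27.3 and 11.5 CPM (-1.24, -1.61 to -0.89) and synovial dendritic cells 59.6 and 27.7 CPM (-1.11). Schwann cells or neurons had 506 and 160 CPM (-1.67, -1.97 to -1.36), but different clusters made up this lineage. The Cdh19-led cluster, 52 and 19 cells, had 582 and 722 CPM. The mural cells of both tissues rested on 4 and 1 TNF+ UMIs. After free RNA was subtracted the Il1rap ratio was under 2-fold in synovial fibroblasts (-0.83) and synovial dendritic cells (-0.97). It stayed past 2-fold in Schwann cells or neurons (-1.62), synovial mural cells (-2.08), lung dendritic cells (-1.32) and, narrowly, lung neutrophils (-1.06). For lung mural cells it was a bound of -0.89.

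Of the inhibitors, Il1rn was higher in TNF+ synovial myeloid cells. It was 77.6 and 318 CPM in macrophages or monocytes (2.04, 1.84 to 2.24), 39.5 and 115 CPM in dendritic cells (1.55, 1.21 to 1.88) and 574 and 1151 CPM in the few neutrophils. The C1q-rich macrophage cluster had 148 and 385 CPM (1.38), while nonclassical monocytes had 37.3 and 27.4 CPM (-0.45, -1.02 to 0.11). In the lung, neutrophils had 138 and 229 CPM (0.73, 0.47 to 1.004), whereas macrophages or monocytes had 46.1 and 23.3 CPM (-0.98, -1.17 to -0.80). Within the latter, nonclassical monocytes were higher (5.85 and 16.6 CPM, 1.504) and alveolar macrophages differed little (126 and 108 CPM, -0.22). C1q-rich macrophages were lower (27.2 and 14.2 CPM, -0.94, -1.71 to -0.12), and so was the shallow Spp1 and Marco cluster (191 and 70.1 CPM, -1.45, -2.43 to -0.28). Classical monocytes had 41.1 and 33.5 CPM (-0.30, -0.66 to 0.08).

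Set against Il1b in the same lineage, Il1rn was higher in TNF+ macrophages or monocytes of the synovium and lower in those of the lung. Synovial macrophages or monocytes had 0.0671 Il1rn UMIs per Il1b UMI in TNF- and 0.200 in TNF+. In those of the lung the ratio was 0.235 and 0.0457, whereas in neutrophils it was higher in TNF+ in both tissues (0.0201 and 0.0354 in the lung, 0.0971 and 0.449 in the few of the synovium). Synovial nonclassical monocytes went against their lineage, with log2 ratios of Il1rn and Il1b of -0.45 (-1.02 to 0.11) and 0.26 (0.18 to 0.34). Those of the lung had 1.504 (0.77 to 2.35) and 1.16 (1.06 to 1.27), intervals that overlap. The C1q-rich macrophage cluster of the lung also went against the lineage (-0.94 and -3.15), with most TNF- Il1b UMIs in 5 cells. Classical monocytes, alveolar macrophages and the Spp1 and Marco cluster of the lung went with it, the last on 1 TNF- Il1b UMI. In the TNF- lung, alveolar macrophages held 191 of the lineage's 318 Il1rn UMIs, and nonclassical monocytes 737 of its 1355 Il1b UMIs. The part of this makeup in the lineage's ratio was not tested. The values per Il1b UMI are ratios of UMI counts and are compared only between libraries. In TNF+ synovial macrophages or monocytes thinned to 1000 UMIs, Il1rn was read in 17.5% of cells with Il1b and in 21.5% of those without.

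Il1r2, the decoy receptor, was a neutrophil gene in the lung, where neutrophils held 93.2% of its UMIs in TNF- and 76.6% in TNF+. They had 1083 and 625 CPM (-0.79, -0.92 to -0.67), with a UMI in 86.0% and 86.4% of cells (55.3% and 40.2% thinned). Synovial dendritic cells were higher in TNF+ (95.3 and 271 CPM, 1.51, 1.29 to 1.72). Il1r2 was also higher in synovial T cells (4.05 and 41.2 CPM, 3.35) and lung T cells (0.217 and 5.49 CPM, 4.66), on 35 and 78 TNF+ UMIs. In synovial T cells 32 of the 35 were in 5 cells. Il18bp was 13.9 and 5.31 CPM in lung endothelium (-1.39, -2.62 to -0.38), on 194 and 8 UMIs, where median depth was 5592 and 780 UMIs. Mostly different clusters made up that lineage. The largest of TNF- had 1416 TNF- and 4 TNF+ cells, and the largest of TNF+ had 12 and 262. Synovial endothelium had 2.86 and 8.21 CPM (1.52, 0.47 to 2.70), on 10 and 34 UMIs. Il18bp UMIs per Il18 UMI were 0.330 and 0.0823 in the whole lung and 0.0943 and 0.236 in the whole synovium.

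By lineage, members were called as follows. In synovial macrophages or monocytes 3 of 10 were higher and 2 lower (all genes: 8.53% and 19.5%). In synovial dendritic cells 2 of 9 were higher and 5 lower (9.15% and 14.4%), and in synovial fibroblasts 3 of 8 were higher and 2 lower (8.73% and 21.9%). In lung neutrophils 0 of 6 were higher and 1 lower (5.94% and 11.4%), and in lung macrophages or monocytes 2 of 10 were higher and 4 lower (4.99% and 14.2%). In lung T cells 6 of 9 were higher and 0 lower (7.04% and 7.24%). Those 6 were Il1b, Il1rn, Il18, Il33, Il1r2 and Il1rl1. For Il1b and Il1rn the TNF+ UMIs (317 and 27) were fewer than the free RNA estimate (720 and 31.03). After it was subtracted Il18 was at 0.51, and Il33, on 5 TNF- UMIs, had a bound of 1.27. Il1r2 rested on 2 TNF- UMIs, with a bound of 3.58. Il1rl1 stayed at 2.09 but was -0.43 when each library was clustered by itself.

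Other genes of the pathway were described by 5 lists. Of 27 genes that interleukin 1 is known to induce in stroma and endothelium, 24 had enough UMIs in synovial fibroblasts, and 16 were higher and 1 lower in TNF+ (median log2 ratio 2.18, against -0.29 over all genes, of which 8.73% were higher and 21.9% lower). The list holds Saa3, Mmp13, Cxcl5 and Mmp3, which are also among the top genes of the cluster of 223 TNF+ cells described above. That cluster was 223 of the 471 TNF+ fibroblasts, and the list was not counted without it. Cxcl5, a neutrophil-attracting chemokine, was 0.472 and 341 CPM in all synovial fibroblasts. In synovial endothelium 12 of 22 were higher and 2 lower (median 1.45, against -0.13 over all genes, of which 6.65% were higher and 10.6% lower). Selp, the adhesion molecule P-selectin, was 2.58 and 215 CPM, and the chemokine gene Cxcl2 12.6 and 504 CPM. Cxcl2 also leads the synovial macrophage or monocyte cluster with 779 TNF+ cells. The part of free RNA and doublets in its endothelial level was not tested. Many genes of the list also respond to TNF itself, and interleukin 1 and TNF cannot be told apart here. In the whole lung 6 of 26 were higher and 10 lower (all genes: 5.79% and 25.5%). The median there was -0.84, against -0.32 over all genes.

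Of the inflammasome and processing genes, 7 of 18 were higher and 1 lower in the whole synovium (all genes: 11.8% and 21.9%). Their median was 0.67, against -0.17 over all genes. Nlrp3, the sensor of the main inflammasome, was 18.8 and 170 CPM (3.17). In synovial macrophages or monocytes 1 of 18 was higher and 5 lower, where 8.53% of all genes were higher and 19.5% lower. The higher gene was Nlrp3 (161 and 361 CPM, 1.16). Of the receptor signalling genes, 5 of 27 were higher and 2 lower in lung neutrophils (all genes: 5.94% and 11.4%), and 5 of 28 higher and 2 lower in lung macrophages or monocytes (all genes: 4.99% and 14.2%). The higher ones included the feedback inhibitors Nfkbia (1.84 and 1.62), Tnfaip3 (1.67 and 1.81) and Irak3 (1.66 and 1.31). In synovial macrophages or monocytes 1 of 28 was higher and 7 lower (all genes: 8.53% and 19.5%), with Nfkbiz at 394 and 108 CPM (-1.87). Of the genes known as targets of interleukin 18 and 33, 4 of 16 were higher and 7 lower in the whole synovium (all genes: 11.8% and 21.9%). Their median was -0.87, against -0.17 over all genes. The type 2 cytokine gene Il13 was 4.15 and 0.0605 CPM in the whole synovium, the latter 2 UMIs. Of the other ligands and receptors, 1 of 6 was higher and 1 lower there (all genes: 11.8% and 21.9%). These were Il18r1 (5.58 and 14.3 CPM) and Il1rl2 (31.2 and 9.68 CPM).

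Over 40 points, each a lineage with at least 50 cells in 1 library, some genes followed the members closely. Among 17809 genes, Mefv, which encodes pyrin, had the highest correlation with Il1b (Pearson r = 0.91 on log2(CPM + 1)), followed by Nlrp3 (0.89). Nlrp3 was also first for Il1rn (0.94). Tshz2 was first for Il1r1 (0.79), Klra17 for Il1r2 (0.82), Clip4 for Il33 (0.82) and Pld4 for Il18 (0.77). The chemokine receptor gene Ccr8 was the third for Il1rl1 (0.77). The points share libraries and free RNA, and the correlations are descriptive.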

How the data were processed

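For each of 4 libraries the authors deposited raw counts of UMIs for every gene in every barcode, made per the study's methods with the count step of Cell Ranger 7.0.1 at default settings on the 10x mm10 reference, which counts intronic reads by default. Reads were assigned to genes by strand. Il1a, Il1b, Il1r2, Il1rap, Il18 and Il18bp overlap a counted gene on the opposite strand. As in the study, cells with 200 to 5000 genes were kept where mitochondrial UMIs did not exceed 20%. Doublets were not removed beyond the upper gene limit.

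Both libraries of a tissue were clustered together with scanpy 1.11.5 (2000 variable genes, 30 components, 20 neighbours, Leiden resolution 0.8), leaving out 111 member and pathway genes. This gave 30 synovial and 36 lung clusters, of which 12 and 11 had over 90% of cells from 1 library, so that such a cluster may reflect the library. Clusters were named from 18 lists of markers, with at least 5 markers 2-fold above the other clusters. These naming thresholds, the clusters left out and the counts per cell were chosen after the data were seen. The members and lists were chosen with earlier results of these data known.

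UMIs were summed per lineage or cluster. A log2 ratio needed at least 50 cells of a lineage, or 20 of a cluster, in each library. For some smaller sets the levels are given without a log2 ratio. Intervals were exact Poisson for CPM, Clopper-Pearson for shares and conditional binomial for log2 ratios, all at 95% and for counting error only. With 1 library per group no test between genotypes was possible. A count of 0 was set to a floor of 3 UMIs in ratios. The interval calculation was tested on simulated data. Named were all members, up to 4 genes per list with the largest ratio, and the 3 genes most correlated with each member. The alternatives were other filters, doublet removal, scaling (TMM from edgeR 4.0.16), clustering, minimum UMIs, free RNA subtraction, equal weights and thinning.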

Additional observations from a re-analysis of the deposited data

Results flagged for a closer look

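For 9 pairs of a gene and a cell population, the log2 ratio of TNF+ over TNF- had opposite signs in the synovium and the lung, with both counting intervals clear of 0. The difference between the tissues was not tested, since each ratio compares 1 library with another.

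In the whole tissues, Il1a had a ratio of 3.50 in the synovium and -0.43 in the lung, Il18 had -0.43 and 0.62, and Il18bp had 0.89 and -1.38. In macrophages or monocytes, Il1a had 1.01 in the synovium and -0.65 in the lung, Il1rn had 2.04 and -0.98, and Il33 had -1.66 and 1.29. Il33 was at most 2.77 CPM in these cells, and its synovial ratio turned to 0.48 without the filter on cells. In dendritic cells Il1rl1 had -3.13 in the synovium and 0.53 in the lung. In T cells Il1b had -6.24 and 2.13, the former resting on 1 cell with 321 UMIs and the latter on 317 TNF+ UMIs, fewer than the 720 estimated as free RNA. In endothelium Il18bp had 1.52 in the synovium and -1.39 in the lung, the latter on 8 TNF+ UMIs and on mostly different clusters in the 2 libraries.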

How the results depend on the processing

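No paired analysis was possible because each group is 1 library. Members past 2-fold numbered 3 to 6 in the whole synovium and 3 to 5 in the whole lung over the alternatives run, against 4 and 4. Pairs of member and lineage past 2-fold, 27 in each tissue, fell to 17 in the synovium and 11 in the lung with a minimum of 100 UMIs. Of 180 shares of cells with a UMI, 12 had a TNF+ interval wholly above the TNF- interval after thinning, and 21 without thinning. Without a filter on cells, the log2 ratio reversed for Il1r1 (-0.43) and Il33 (0.48) in synovial macrophages or monocytes, for Il18 in lung macrophages or monocytes (0.81) and for Il18 in lung fibroblasts (-0.23). With free RNA subtracted the sign turned for Il33 in synovial endothelium (0.88), and in the lung for Il1b in T cells (-1.84) and B or plasma cells (-3.64) and for Il1rn in B or plasma cells (-1.04). In each of these the estimate exceeded the UMIs counted in 1 library, which was set to the floor of 3 UMIs, so these signs follow from the floor and are not measured reversals. Il1rn in T cells and Il1b in NK or innate lymphoid cells and fibroblasts of the lung, and Il1b in synovial fibroblasts, were at the floor in both libraries and gave no value. With each cell weighted equally the log2 ratio reversed for Il33 in the whole lung (0.33) and Il18bp in lung macrophages or monocytes (0.20), and with each library clustered by itself for Il1rl1 in lung T cells (-0.43). The cause of the other reversals was not tested. Ratios of genes with few UMIs, such as Il1a and Il18bp, are limited by depth.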

Other observations

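An unnamed synovial cluster led by the protease gene Ctsk had 177 TNF- and 233 TNF+ cells. It matched fibroblasts best, with 16 of 26 markers, against 8 markers of macrophages or monocytes. No lineage marker was among its top genes, so this shallow cluster was left unnamed. Its Il1rn was 8.35 and 110 CPM (log2 ratio 3.72, 2.32 to 5.62). Its Il1b was 25.1 and 68.9 CPM and its Il1r1 113 and 53.3 CPM. The cells were shallow, with medians of 2069 and 1316 UMIs.

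In the lung, the C1q-rich macrophage cluster had Il1rl1 at 31.1 CPM in TNF- and 0.617 in TNF+, with a UMI in 17 of 62 and 1 of 235 cells.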
